A study of Rattus norvegicus with 13 samples.

Results

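Microglia are the resident macrophages of the brain, and the genes described here are ones by which they are commonly recognized. Of 10 listed genes, 8 had a probe that carries their symbol, 1 probe for each gene, among 13793 probes with a symbol (13337 genes) and 22523 probes in all. These 8 genes are C1qa, C1qb and C1qc, which encode the chains of complement C1q, Tyrobp, Itgam, Cx3cr1, Aif1 and Ctss. No probe carried the symbol Csf1r or Cd68, and these genes were left out. The probes were taken by gene symbol, and the genes were listed with earlier results of these data known.

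Total RNA came from the SN/VTA, the ventral midbrain region of the substantia nigra and the ventral tegmental area that holds the dopamine cell bodies, of male Sprague-Dawley rats aged 8 weeks. The MM group received intraperitoneal methamphetamine (METH) in pretreatment and again as a challenge, the SM group saline pretreatment and the METH challenge, the MS group METH pretreatment and a saline challenge, and the SS group saline at both stages. Pretreatment lasted 3 weeks and used increasing METH doses, the challenge followed 72 h later as 8 injections of METH at 5 mg/kg spaced by 1 h, and the rats were euthanized 24 h after it. The arrays numbered 3 in MM (replicates 1, 2 and 3), 3 in SM (1, 3 and 4), 4 in MS (1 to 4) and 3 in SS (2, 3 and 4). The labels name the tissue SN/VTA for every array, while the text of the amplification step in the same labels speaks of striatal RNA. The question put to these genes is whether a METH challenge or METH pretreatment was accompanied by a change of microglial and C1q transcripts in the midbrain.

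C1q is the recognition molecule of the classical complement pathway. It is assembled from A, B and C chains, binds antibody complexes, dying cells and some synapses, and activates the proteases C1r and C1s, after which C4, C2 and C3 are cleaved. In the brain most C1q is made by microglia. Tyrobp (DAP12) is the signalling adaptor of TREM2 and of other myeloid receptors, Itgam (CD11b) is the alpha chain of complement receptor 3, Cx3cr1 is the receptor for the neuronal chemokine Cx3cl1, Aif1 (Iba1) is an actin-bundling protein widely used to stain microglia, and Ctss (cathepsin S) is a lysosomal cysteine protease that processes the invariant chain of MHC class II.

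All values below are normalized signals in arbitrary fluorescence units, recovered from the deposited ratios and divided by the median ratio of their array, which ran between 0.770 and 0.952. The 8 genes lay above the lower limit of the ratios on all 13 arrays. A gene was called changed at a fold of at least 1.7 with an unadjusted limma p under 0.05. The study set the same fold and p thresholds in GeneSpring, not in this model, so its calls can differ. Benjamini-Hochberg adjusted p-values cover all 17147 probes tested. Across the 13 arrays 26.63 to 30.48% of values lay at the limit. Markers of dopamine neurons differed widely within groups. Th, the rate-limiting enzyme of dopamine synthesis, ranged between 235.5 and 2983 units, Slc18a2 (the vesicular monoamine transporter) between 136 and 764.4 units, and Slc6a3 (the dopamine transporter) was listed at 0 on 1 array and reached 2348 units on another. In whole tissue fewer microglia and less RNA per microglial cell cannot be told apart. The study describes its groups as groups of animals, while the labels number the replicates without tying an array to an animal, and the p-values measure the spread between these arrays.

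C1qa, C1qb and C1qc lie next to each other on rat chromosome 5. Promoter sequences of RefSeq (build GRCr8, 250 bases before to 50 bases after the start of the gene) were at hand for 5 of the 8 genes, Itgam, Cx3cr1, C1qa, C1qb and Ctss, and not for Aif1, Tyrobp and C1qc. Those of C1qb and C1qa, which lie on either side of C1qc, are printed because their signals moved together across arrays. That of Ctss is printed because this gene had the smallest p of the 8. The sequences run 5′ to 3′ on the strand of the gene, with GAGGAA or its complement TTCCTC, the core of the site bound by the myeloid factor PU.1, in capitals.
C1qb, chr5:154407778-154408077, minus strand: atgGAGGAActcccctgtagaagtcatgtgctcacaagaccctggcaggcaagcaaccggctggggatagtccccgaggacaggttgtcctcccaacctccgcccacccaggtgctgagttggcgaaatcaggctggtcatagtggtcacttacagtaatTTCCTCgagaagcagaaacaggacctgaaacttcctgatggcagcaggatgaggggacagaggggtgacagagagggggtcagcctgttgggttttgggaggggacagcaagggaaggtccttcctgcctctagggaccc
C1qa, chr5:154419884-154420183, minus strand: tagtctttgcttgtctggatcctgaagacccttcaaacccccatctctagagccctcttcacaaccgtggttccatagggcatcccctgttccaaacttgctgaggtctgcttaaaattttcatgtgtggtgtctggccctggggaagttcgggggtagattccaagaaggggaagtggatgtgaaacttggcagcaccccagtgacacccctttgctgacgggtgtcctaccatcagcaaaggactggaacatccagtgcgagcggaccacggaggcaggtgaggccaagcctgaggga
Ctss, chr2:185775146-185775445, plus strand: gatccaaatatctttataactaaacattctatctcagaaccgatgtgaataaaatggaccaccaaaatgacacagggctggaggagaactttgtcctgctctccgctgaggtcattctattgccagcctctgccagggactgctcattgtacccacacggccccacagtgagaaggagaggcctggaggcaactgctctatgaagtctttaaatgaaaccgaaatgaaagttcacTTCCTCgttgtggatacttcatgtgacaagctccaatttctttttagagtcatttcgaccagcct
On both strands GAGGAA was found in 3 of the 5 promoters, against 27.54% of 27457 rat promoters of the same length. In C1qb it began 247 and 90 bases before the start, in Ctss 15 bases before the start and in Itgam 151 and 39 bases before the start. The core of the interferon-stimulated response element was found in 1 of the 5 promoters (Ctss) and in 3.77% of all, and the AP-1 site TGANTCA in 0 of 5 and in 7.33% of all. The motifs share no letters in overlap in the 3 sequences printed, and a match is a description of these letters only.

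None of the 8 genes was called changed in any comparison, and the lowest adjusted p among them was 0.875. In SM against SS 0 of 8 genes were called, and 1.63% of all probes tested were. The other comparisons likewise had 0 of 8, with 1.33% of all probes called in MM against MS, 1.13% in MS against SS, 1.57% in MM against SM, 1.18% for the METH challenge averaged over both pretreatments and 1.69% for the difference between the challenge effects, which is MM against MS minus SM against SS. At an unadjusted p under 0.05 alone, 1 of the 8 genes passed in 1 comparison, Ctss in MM against MS. The same threshold without a fold was passed by 4.4% of all probes in that comparison. Of the 48 intervals of 95% (8 genes in 6 comparisons), 37 lay wholly inside a fold of 1.7 in either direction, which is 0.77 on the log2 scale, and 11 reached beyond it, 5 of these for the difference between the challenge effects.

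**Figure D1:**
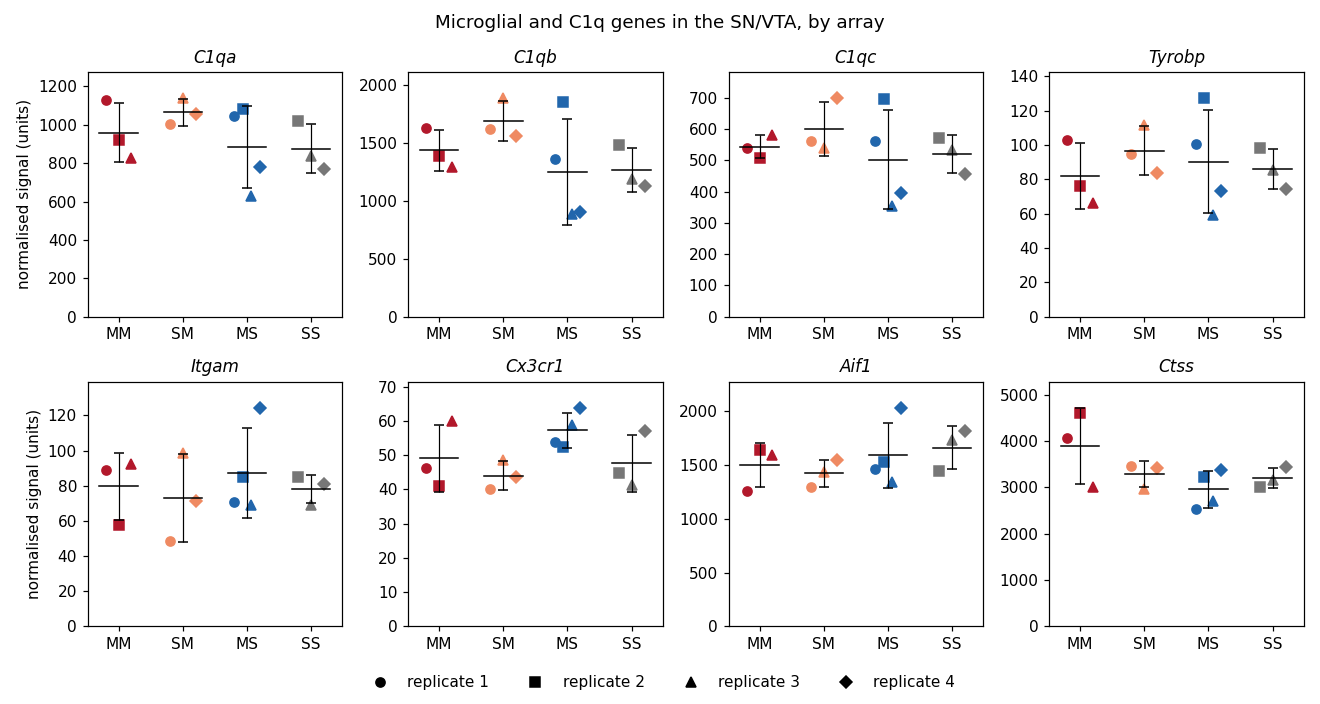
Normalized signal (units, axes from 0) of each of the 8 genes on each of the 13 arrays, with the groups MM, SM, MS and SS along the x axis, a marker shape for each replicate number, and lines for group means ± SD. The MS arrays numbered 3 and 4 are the lowest of all 13 for C1qb, at 887.09 and 908.84 units, and the 3 SM arrays lie above the 3 SS arrays.

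C1qb, the B chain, read 1619.5, 1890.4 and 1562.3 units on the SM arrays, against 1481.1, 1193.1 and 1131.6 units on the SS arrays. Every SM array was above every SS array. This was so for 1 of the 8 genes, and 5.31% of all probes tested were higher in SM with no overlap. The log2 fold change was 0.42 (SE 0.25, limma unadjusted p = 0.122, adjusted p = 1.00), with an interval between -0.13 and 0.97. In the other pair the signals were 1632.5, 1389.4 and 1292.2 units on the MM arrays, against 1360.2, 1854.8, 887.09 and 908.84 units on the MS arrays. The groups overlapped, since MS held both the lowest values and the highest value of the pair, and the log2 fold change was 0.26 (SE 0.24, limma unadjusted p = 0.289). Averaged over both pretreatments, C1qb had a log2 fold change of 0.34 with METH challenge (SE 0.17, limma unadjusted p = 0.0721, adjusted p = 0.875), short of the threshold. This was the largest average of the 8 genes with all arrays, but without the MS arrays numbered 3 and 4 it was 0.13, below the 0.23 of Ctss. The group means were 1438 ± 175.3 units in MM, 1691 ± 175.2 in SM, 1253 ± 456.8 in MS and 1269 ± 186.6 in SS (SD, n = 3, 3, 4 and 3), SM being highest and MS lowest, and no comparison between these groups passed.

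C1qa, the A chain, read 1002.7, 1139.5 and 1054.4 units on the SM arrays, against 1019.2, 838.01 and 770.3 units on the SS arrays. The SS array numbered 2 was within the SM range and the other SS arrays were below it, and the log2 fold change was 0.29 (SE 0.21, limma unadjusted p = 0.200). On the MM arrays C1qa read 1131, 920.73 and 827 units, against 1045.1, 1081.9, 631.14 and 781.04 units on the MS arrays, a log2 fold change of 0.14 (SE 0.20). C1qc, the C chain, read 563.28, 538.36 and 699.24 units on the SM arrays, against 572.98, 534.54 and 454.71 units on the SS arrays. These groups overlapped too, with a log2 fold change of 0.20 (SE 0.23). C1qc was 539.54, 508.79 and 581.4 units on the MM arrays, against 563.33, 696.58, 354.64 and 394.23 units on the MS arrays. The 3 chains thus had estimates above 0 with METH challenge under either pretreatment, of which none passed, and their averaged log2 fold changes of 0.21 (C1qa, limma unadjusted p = 0.169), 0.34 (C1qb) and 0.18 (C1qc, limma unadjusted p = 0.263) stand beside a median of -0.002 over all probes. The values above 0 came mostly from the arrays numbered 3 and 4, numbers that the labels do not call a batch. Among these, the log2 difference in MM against MS (1 array against 2) was 0.24 for C1qa, 0.53 for C1qb and 0.64 for C1qc, and in SM against SS (2 against 2) it was 0.45, 0.56 and 0.32 for the same genes. Among the arrays numbered 1 and 2, it was -0.06 for C1qa, -0.08 for C1qb and -0.26 for C1qc in MM against MS (2 against 2). In SM against SS (1 against 1) it was -0.02 for C1qa, 0.13 for C1qb and -0.02 for C1qc.

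Within MS the C1q chains and Tyrobp divided the arrays alike. The arrays numbered 3 and 4 were lowest for each of these 4 genes and those numbered 1 and 2 highest, so that C1qc, for example, spanned 354.64 to 696.58 units in MS and 454.71 to 572.98 units in SS. The same 2 arrays had the lowest summed signal of 5 dopamine neuron markers in MS, 852 and 992.4 units, against 2345 and 6069 units on the MS arrays numbered 1 and 2, and the lowest median ratios of all 13 arrays, 0.835 and 0.770. The part of either in the C1q values was not tested. Without these 2 arrays, a choice made after seeing the data, MM against MS had a log2 fold change of -0.15 for C1qb, -0.16 for C1qa and -0.21 for C1qc, so that the direction of all 3 turned. MS against SS, with all arrays at -0.08 for C1qb, -0.01 for C1qa and -0.10 for C1qc, came to 0.33, 0.29 and 0.27 without them, and none of these passed. In SM against SS, C1qb kept its 0.42 without them at a limma unadjusted p of 0.0248, since all groups share the spread estimate. The difference between the challenge effects came to -0.57 for C1qb (limma unadjusted p = 0.0379) and -0.66 for Tyrobp (limma unadjusted p = 0.0389). In MM against MS, Tyrobp came to -0.49 (limma unadjusted p = 0.0385) and Ctss to 0.42 (limma unadjusted p = 0.0411). None of these reached 1.7-fold.

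Tyrobp, the adaptor, read 94.59, 111.78 and 83.612 units on the SM arrays, against 98.081, 85.478 and 74.539 units on the SS arrays. It read 103.11, 76.234 and 66.209 units on the MM arrays, against 100.78, 127.31, 59.388 and 73.347 units on the MS arrays. The groups overlapped in both pairs, and MS spanned a wider range than any other group. The averaged log2 fold change of Tyrobp with METH challenge was 0.03 (SE 0.18), and a sign so near 0 turned when any of 5 single arrays was left out. Hcst, which encodes the adaptor DAP10 and lies beside Tyrobp on chromosome 1, was dim (0 to 12.52 units) and was not called.

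Itgam, the CD11b chain, read 89.192, 57.618 and 92.133 units on the MM arrays, 48.443, 98.45 and 71.37 units on the SM arrays, 70.762, 85.199, 69.245 and 124.36 units on the MS arrays, and 84.712, 69.145 and 80.767 units on the SS arrays. It varied most of the 8 genes, its highest array standing 2.57-fold above its lowest, and its averaged log2 fold change with METH challenge was -0.14 (SE 0.19). Aif1 read 1261.6, 1638.8 and 1598 units on the MM arrays and 1293.9, 1436.1 and 1545.8 units on the SM arrays, against 1463.3, 1527.6, 1342.4 and 2034.4 units on the MS arrays and 1440.9, 1733.8 and 1816.2 units on the SS arrays. The MS array numbered 4 was the highest of all 13 arrays for Aif1, Itgam and Cx3cr1. In SM against SS the log2 fold change of Aif1 was -0.22 (SE 0.17, limma unadjusted p = 0.214), and its average over both pretreatments was -0.15 (SE 0.11), neither past the threshold.

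Cx3cr1, the chemokine receptor, read 53.999, 52.498, 58.786 and 63.897 units on the MS arrays, against 44.715, 41.16 and 57.006 units on the SS arrays. One SS array, that numbered 4, lay inside the MS range and the other SS arrays below it. The log2 fold change was 0.28 (SE 0.15, limma unadjusted p = 0.0933, adjusted p = 1.00). Without the SS array numbered 4 it was 0.41 at an unadjusted p of 0.0242, and without that numbered 3 it was 0.18 at a p of 0.310, by the same limma fit. Cx3cr1 was 46.326, 41.079 and 60.002 units on the MM arrays, which overlapped those of MS, and 40, 48.477 and 43.499 units on the SM arrays. Its averaged log2 fold change with METH challenge was -0.17 (SE 0.11, limma unadjusted p = 0.151).

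Ctss, the lysosomal protease, read 4075.7, 4615.7 and 2996.9 units on the MM arrays, against 2531.1, 3225.3, 2714 and 3373.6 units on the MS arrays. The MM arrays numbered 1 and 2 were the highest of all 13, and the MM array numbered 3 lay inside the MS range. The log2 fold change was 0.38 (SE 0.15, limma unadjusted p = 0.0258, adjusted p = 0.999), 1.30-fold and so short of the fold that a call needs. In replicates 1 and 2 alone (2 arrays against 2) the log2 difference was 0.60, and in replicates 3 and 4 (1 array against 2) it was -0.01. Ctss on the SM arrays was 3472.1, 2968.8 and 3415.6 units, against 3011.1, 3156.2 and 3437.6 units on the SS arrays, with overlapping groups and a log2 fold change of 0.04 (SE 0.16). The challenge effects under METH and saline pretreatment differed by 0.35 (SE 0.22, limma unadjusted p = 0.141), which did not pass. These values moved with single MM arrays. Without the MM array numbered 3 the difference was 0.52 (limma unadjusted p = 0.0171) and MM against MS 0.56, and without that numbered 2 they were 0.21 and 0.25, with no call in either case. Between the challenged groups, MM against SM, the log2 fold change was 0.23 (SE 0.16, limma unadjusted p = 0.185), and it was 0.40 without the MM array numbered 3 and 0.09 without that numbered 2.

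**Figure D2:**
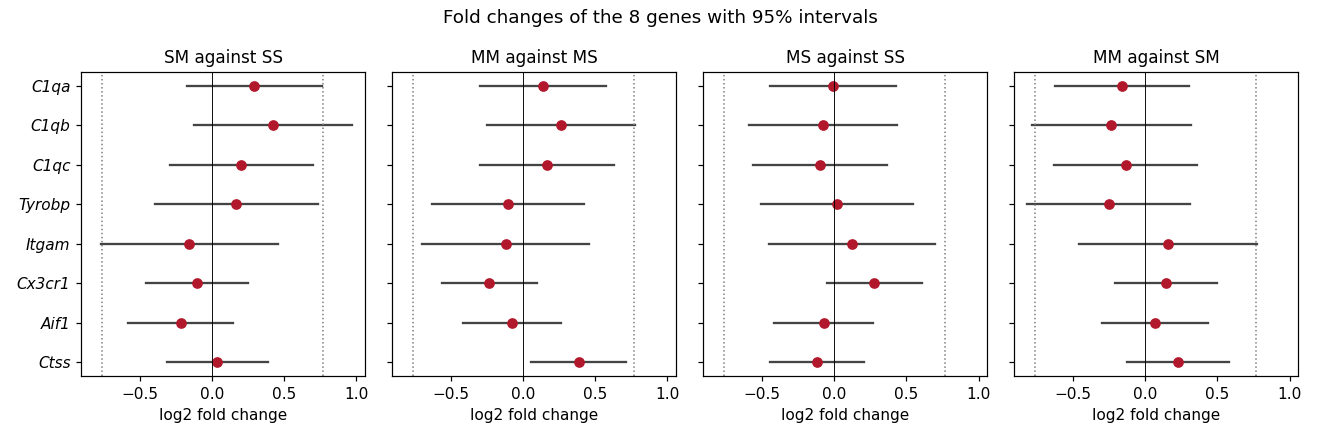
Log2 fold change (points) with its 95% interval from the limma fit (lines) for the 8 genes in SM against SS, MM against MS, MS against SS and MM against SM, with dotted lines at a fold of 1.7 in each direction. The interval of Ctss in MM against MS is the one of the 32 shown that leaves out 0.

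Over the 8 genes, the median log2 fold change was 0.10 in SM against SS (0.01 over all probes), 0.03 in MM against MS (-0.01), -0.04 in MS against SS (0.02), -0.03 in MM against SM (0.00), 0.11 for the averaged challenge (-0.002) and -0.08 for the difference between the challenge effects (-0.02). The comparisons share groups, so their medians are not separate evidence. Each group is used in 2 of the comparisons between a pair of groups, and the averaged challenge and the difference use all 4 groups. The widest estimate of any gene in any comparison was the 0.42 of C1qb in SM against SS.

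The 8 genes did not vary as 1 unit across arrays. After the group means were subtracted, C1qa, C1qb, C1qc and Tyrobp had Pearson correlations between 0.68 and 0.95 in their 6 pairs, and Itgam, Cx3cr1 and Aif1 between 0.36 and 0.64 in their 3 pairs. Between these sets, 9 of 12 correlations were below 0, the lowest being -0.43 for Cx3cr1 with Tyrobp. Ctss went with neither set, its 7 correlations lying between -0.39 and 0.32. These are descriptions over 13 arrays that share scaling and tissue content, and the MS arrays numbered 3 and 4 weigh in all of them. Among probes with a symbol, those most like the mean of the 8 standardized profiles were Pacs1 (r = 0.91), Rpp21 (0.89), Ube2c (0.87, a dim probe at its limit on 1 array), Mrpl55 (0.86), Nit2 (0.85), Tspo (0.85), Cgref1 (0.84), Fcna (0.84), Phf23 (0.84) and Fbxl6 (0.83), each over 13 arrays. Tspo, the mitochondrial translocator protein used as an imaging marker of glial activation, read 308.2, 289.8 and 293.2 units on the MM arrays, 291, 285.6 and 295.2 units on the SM arrays, 302.5, 390.2, 198.7 and 274.8 units on the MS arrays, and 281, 264.5 and 232 units on the SS arrays. Its extremes were the MS arrays numbered 2 and 3, and it was not called in any comparison.

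**Figure D3:**
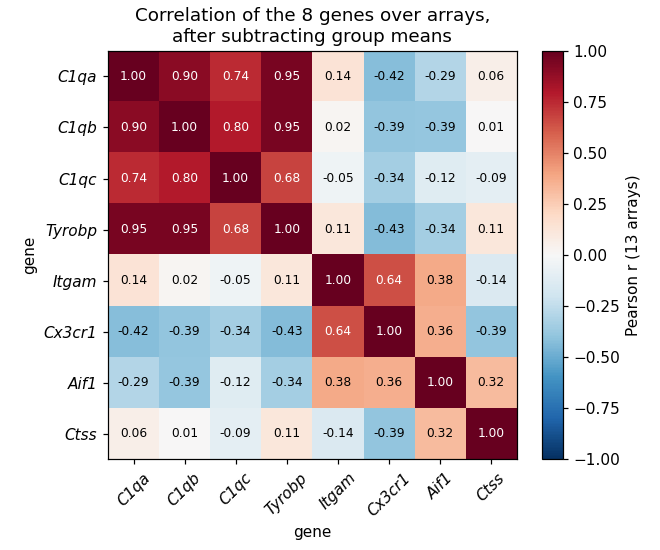
Pearson correlation of each pair of the 8 genes over the 13 arrays (log2 values after subtracting the mean of each group, colour from -1 to 1). C1qa, C1qb, C1qc and Tyrobp form a block between 0.68 and 0.95, and Cx3cr1 is negative with each of them.

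Ligands and partners of these genes were not called either, with 0 of 7 tested in any comparison. Cx3cl1, the ligand of Cx3cr1, ranged between 3606 and 5196 units, and Csf1, a growth factor of microglia, between 256.9 and 474.1 units. Trem2, the receptor that signals through Tyrobp, was 723.4, 682.5 and 742.5 units on the SM arrays, against 668.3, 648 and 657.2 units on the SS arrays. These groups did not overlap, as was so for 5.31% of all probes higher in SM, and the log2 fold change was 0.12 (SE 0.12). Il34, the other ligand of the CSF1 receptor, was 48.93, 54.58 and 44.67 units on the SM arrays, against 56.29, 59.34 and 63.71 units on the SS arrays, a log2 fold change of -0.28 (limma unadjusted p = 0.0389, adjusted p = 1.00) that did not reach a fold of 1.7.

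Of 19 other microglial genes tested, 0 were called in any comparison, and the median in SM against SS was -0.06. P2ry12, a purinergic receptor of resting microglia, averaged -0.28 with METH challenge (SE 0.13, limma unadjusted p = 0.0505), and Tmem119, another marker of resident microglia, averaged -0.05 (SE 0.11). Spi1, which encodes PU.1, ranged between 24.3 and 46.16 units and averaged -0.04 (SE 0.15). Of 19 further complement genes, 0 were called in any comparison. C1r and C1s, the proteases that C1q activates, averaged -0.30 (SE 0.18) and -0.22 (SE 0.15) with METH challenge. Vtn, which encodes vitronectin, an inhibitor of the terminal pathway, was 786.8, 876.7 and 981.2 units on the MM arrays, against 1117, 1226, 1019 and 1126 units on the MS arrays. Every MM array was below every MS array for Vtn, as were 2.41% of all probes tested, but the log2 fold change of -0.35 (limma unadjusted p = 0.00333, adjusted p = 0.963) was short of 1.7-fold. Of 15 lysosomal and cathepsin genes other than Ctss, 0 were called in any comparison.

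Of 24 genes of microglial activation tested, Il1a alone met the criterion for a call, and its test carries no weight. Il1a, the cytokine interleukin-1 alpha, was at 3.038, 6.462 and 0.6085 units on the MM arrays and listed at 0 on the other 10 arrays. A probe had to be above the limit on at least 3 arrays to be tested, so Il1a was tested only through the group in which it was high, and neither a fold nor a p is given. These signals are near the bottom of the scale. The other 23 genes were not called in any comparison. Il1b ranged between 25.48 and 43.71 units, and Tnf between 0 and 8.35 units. Tlr2, a receptor for bacterial lipoproteins, was 107, 82.25 and 95.07 units on the SM arrays, against 127.4, 115 and 129.6 units on the SS arrays, a log2 fold change of -0.39 (SE 0.13, limma unadjusted p = 0.0110, adjusted p = 0.972) below the fold needed.

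Markers of macrophages at the borders of the brain and of monocytes were examined because these cells also carry several of the 8 transcripts. In SM against SS 2 of 8 tested were called lower, against 0.951% of all probes, and the call of 1 of them, Adgre1, was lost with the replicate number as a block (-0.60, limma unadjusted p = 0.0852) and under several other settings. The list was written with earlier results of these data known, so these shares are not a test of the list. The study itself lists Mrc1 as lower in this comparison. Mrc1, the mannose receptor, fell to 23.69, 13.46 and 16.67 units on the SM arrays, against 45.28, 44.43 and 27.98 units on the SS arrays, and these groups did not overlap, as was so for 4.6% of all probes lower in SM. The log2 fold change was -1.13 (SE 0.28, limma unadjusted p = 0.00149, adjusted p = 0.556). Adgre1 (F4/80), a macrophage adhesion receptor, fell to 17.87, 13.71 and 9.898 units, against 26.51, 24.39 and 19.35 units on the SS arrays, by 0.79 on the log2 scale (SE 0.30, limma unadjusted p = 0.0235, adjusted p = 1.00). Ms4a7 was 22.7, 18.69 and 26.05 units on the SM arrays, against 33.7, 33.1 and 35.26 units on the SS arrays, a log2 fold change of -0.61 (limma unadjusted p = 0.00143) that missed 1.7-fold. In MM against MS 0 of the 8 were called, with log2 fold changes of -0.13 for Mrc1 and 0.31 for Adgre1. In MS against SS, METH pretreatment without challenge, 6 of the 8 markers had estimates below 0. Cd14 (0.22) and Cd163 (0.99, SE 1.21) were above it, and Cd14 was so in SM against SS too (0.35). Adgre1 was 9.018, 18.16, 11.78 and 18.9 units on the MS arrays, all below the SS arrays as were 1.32% of all probes. Its log2 fold change in MS against SS was -0.75 (SE 0.28, limma unadjusted p = 0.0220), which missed 1.7-fold. The study lists Adgre1, under its earlier symbol Emr1, as lower in MS against SS. Mrc1 had -0.45 (SE 0.26, limma unadjusted p = 0.105), with overlapping groups. The challenge effects under METH and saline pretreatment differed by 1.01 for Mrc1 (limma unadjusted p = 0.0206) and 1.10 for Adgre1 (limma unadjusted p = 0.0217), at an adjusted p of 1.00 for both.

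The whole list of 8 border macrophage and monocyte markers summed to between 261 and 277.4 units on the SM arrays and between 305 and 338.1 units on the SS arrays. On the MM arrays the sum ran between 269.3 and 285.3 units, and on the MS arrays between 256.9 and 316.7 units. Of the blood markers tested, 4 of 5 had estimates below 0 in SM against SS, and of the meningeal markers 7 of 7. The 5 blood markers tested summed to between 12000 and 14420 units on the SM arrays and between 22700 and 27410 units on the SS arrays, mostly through the hemoglobin gene Hbb, and 3 of the 5 were called lower, Hbb (-0.88 on the log2 scale), the platelet chemokine Pf4 (-0.87) and Alas2, the heme synthesis enzyme of red cells (-0.999). Alas2 was also called lower in MS against SS (-1.003), and the hemoglobin gene Hba-a2 in MM against SM (-1.08). In these comparisons 1.13% and 1.57% of all probes were called in either direction. In SM against SS Hba-a2 was the 1 blood marker above 0 (0.26), at 26.39, 25.42 and 10.03 units on the SM arrays. It read 15.17, 15.46 and 16.77 units on the SS arrays. The 7 meningeal markers summed to between 3768 and 4604 units in SM and between 5107 and 7131 units in SS. In MM their sums (4718 to 4923 units) likewise lay below those of MS (5624 to 6512 units). In SM against SS 1 of the 7 was called lower, the collagen gene Col1a1 (-1.07), against 0.951% of all probes. For the averaged challenge Col1a1 (-0.91) and Col3a1 (-1.13), another collagen gene, were called lower, while 1.18% of all probes were called in either direction. The blood and meningeal lists too were written with earlier results of these data known. The 8 microglial and C1q genes themselves summed to between 8135 and 8476 units in SM and between 7651 and 7823 units in SS, mostly through Ctss, C1qb and Aif1. With each gene weighted equally the groups overlapped. The mean log2 deviation of the 8 from their averages was -0.07, 0.15 and 0.06 on the SM arrays. On the SS arrays it was 0.04, -0.08 and -0.05. In SM against SS 5 of the 8 had estimates above 0 and 3 below. The part of blood and meninges in the macrophage values was not tested. Of 5 neutrophil markers 3 could be tested and 0 were called in this comparison.

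**Figure D4:**
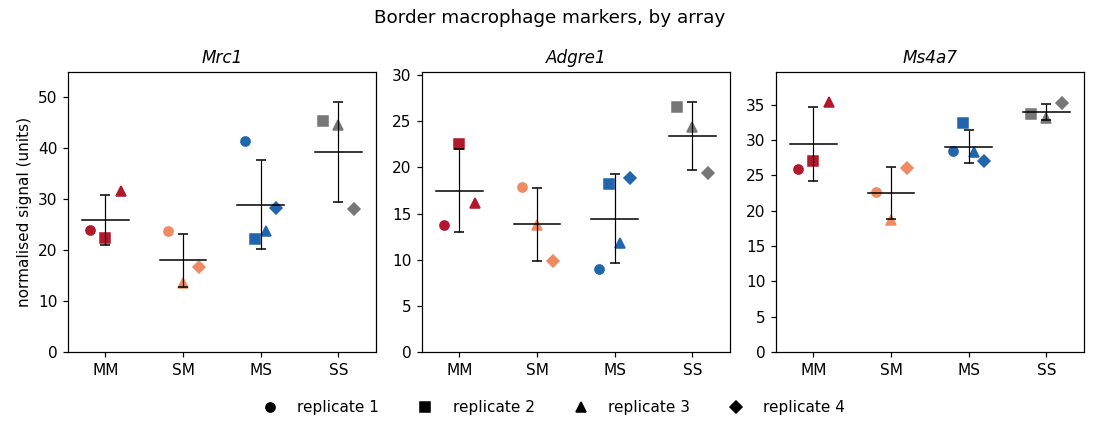
Normalized signal (units, axes from 0) of Mrc1, Adgre1 and Ms4a7 on each array, with the groups MM, SM, MS and SS along the x axis, a marker shape for each replicate number, and lines for group means ± SD. All 3 SM arrays lie below all 3 SS arrays for each gene, and the MS arrays of Adgre1 do so too.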

How the data were processed

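Each of 13 RNA samples was measured on 1 Illumina RatRef-12 array. The authors read the arrays in BeadStudio and normalized them globally in GeneSpring. What they deposited is a ratio for each probe: its background-subtracted, array-scaled signal over its own median across the arrays (over 10 units if the median was below that), cut off at 0.01. Signals in units were recovered from the deposited ratios, because on each array dim values fall on multiples of 1 step (14808 of 14808 examined, within 0.02 of a whole number). Steps and lower limit leave little precision below about 10 units, and the number of arrays limits the precision of every comparison.

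Each ratio was scaled to the median of its array, raised to a floor of 0.013 and log2-transformed. The 17147 probes above the limit on at least 3 arrays (11323 with a symbol) entered a limma model (version 3.58.1, R 4.3.3) with a mean for each of the 4 groups, whose trended prior had 2.81 degrees of freedom. The model fit and the rule for a call were tested on simulated log2 values for SM against SS. The recovery of signals, the scaling, the floor and the filter were not part of that test. Gene symbols are those of the platform annotation (13793 probes with 1 symbol, 8730 with none), and all 8 genes matched the current RefSeq annotation of the rat. Tables, promoters and figures were made in Python.

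The text names every gene of the 10 listed that has a probe, the genes called in the other lists, the 10 probes most like the mean profile, and Th, Slc6a3 and Slc18a2. Other genes of the lists were named for their role or after their values were seen. The genes and lists were chosen with earlier results of these data known. Replicate numbers occur in several groups. Of 15 same-numbered pairs of arrays from different groups, 6 correlated above 0.1 in their deviations from group means. Of differently numbered pairs, 4 of 16 did so within numbers 1 and 2 or within 3 and 4, and 0 of 32 across this split. The arrays thus varied partly with the split, which the labels do not name. The main model used neither the number nor the split. Alternatives were other scalings, floors and filters, an added 16 units, a prior without trend, the groups compared alone, the replicate number or its split into 1 and 2 against 3 and 4 as a term, and leaving out each array. A pair was added after seeing the data, scaling to the median of those probes that exceed the limit on every array, and leaving out the MS arrays numbered 3 and 4. Each of the 8 genes has 1 probe, so no other probe could be tried.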

Additional observations from a re-analysis of the deposited data

Results flagged for a closer look

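In 2 genes of the lists examined, neither of them among the 8, the effect of the METH challenge differed between METH and saline pretreatment at a 1.7-fold difference and an unadjusted limma p under 0.05, a threshold that 1.69% of all probes passed. The lists were written with earlier results of these data known, so this share is not a test of them. The log2 difference was 1.01 for Mrc1 (unadjusted p = 0.0206) and 1.10 for Adgre1 (unadjusted p = 0.0217), with an adjusted p of 1.00 for both. The log2 fold changes behind it were -0.13 for Mrc1 and 0.31 for Adgre1 in MM against MS, and -1.13 for Mrc1 and -0.79 for Adgre1 in SM against SS. The mean of MS was itself below that of SS, by -0.45 for Mrc1, whose groups overlapped, and -0.75 for Adgre1, neither called. Within the MS group of 4 arrays, no array of any of the 8 genes lay far enough from the others to be marked as an outlier. The rule looks for 1 isolated array. For the C1q chains and Tyrobp it could not mark the MS arrays numbered 3 and 4, which were low together.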

How the results depend on the processing

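None of the 8 genes was called in any comparison under any of the alternatives, 26 for each comparison of a pair of groups and 25 for the averaged challenge and the difference, which cannot be fitted from a pair of groups alone. The median of the 8 moved by more than the spread between arrays only without the MS arrays numbered 3 and 4, to 0.22 in MS against SS and to -0.14 in MM against MS. With 1 array left out at a time that median ran between -0.14 and 0.10 in MS against SS, -0.08 and 0.16 in MM against MS, between 0.05 and 0.14 for SM against SS, -0.14 and 0.05 in MM against SM, 0.02 and 0.18 for the averaged challenge, and -0.19 and 0.05 for the difference. Of the 48 results of the 8 genes (8 genes in 6 comparisons), 25 kept their sign under every alternative run and 23 did not, and leaving out 1 array moved 43 of them by over 1.5 times, none of them called. The values below are for 25 of the 48, of which 9 turned. Without the MS arrays numbered 3 and 4, MS against SS gave 0.29 for C1qa, 0.33 for C1qb and 0.27 for C1qc, MM against MS gave -0.16, -0.15 and -0.21 for the same genes, and the averaged challenge gave -0.16 for Tyrobp, -0.0028 for C1qc, 0.07 for C1qa and 0.13 for C1qb. Quantile normalization turned C1qa in MS against SS to 0.014. Tyrobp in the averaged challenge was -0.0042 with the replicate block and -0.0031 with the split of the numbers as a term. With 1 array left out, MS against SS ran between -0.12 and 0.14 for C1qa, -0.29 and 0.066 for C1qb and -0.27 and 0.051 for C1qc, C1qa in MM against MS between -0.012 and 0.25, Tyrobp in the averaged challenge between -0.059 and 0.12, and C1qb in the difference between -0.30 and 0.053.

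With the replicate block Ctss in MM against MS had a log2 fold change of 0.42, and no call among the 8 genes changed. Adgre1 lost its call in SM against SS with the replicate block (-0.60), values as deposited, quantile normalization, the pseudocount, 16 added units, or without the SM array numbered 4 or the SS array numbered 2 or 3. Mrc1 lost it with 16 added units (-0.70). The difference between the challenge effects lost its call for Adgre1 with the replicate block, 16 added units, or without MM array 2, SM array 4 or SS array 2, and for Mrc1 with 16 added units, without the MS arrays numbered 3 and 4, or without MM array 3, SM array 3 or SS array 2 or 3. The causes were not tested.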
